A study of Homo sapiens with 9 samples.

Results

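The CXCR4 axis and a small set of chemokines were followed in RNA-seq libraries of TC-32, an established human Ewing sarcoma cell line. The 8 genes were taken by symbol from a table of 58381 genes. They are the ligands CXCL12, CXCL14, CXCL16, CXCL10, CXCL11 and CCL2 and the receptors CXCR4 and ACKR3. The question was which genes the transcription factor ETS1 controls in cells that still hold the fusion oncoprotein EWSR1::FLI1. The RFP group carried the lentiviral pLOC vector with a red fluorescent protein. In the ETS1-High group a synthetic ETS1 cDNA in the same vector was expressed at about the amount seen after depletion of EWSR1::FLI1, and in the ETS1-Low group at a lower amount. All 9 libraries, 3 per group, came from transduced TC-32 cells that keep the fusion and had been selected with puromycin and sorted as single cells. The ETS1 cells are described as single-cell clones. How many clones each group represents is not stated, and neither is the clonal origin of the RFP cells. Differences between clones and effects of ETS1 therefore cannot be told apart.

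CXCR4 is a G protein-coupled receptor on which cells migrate towards its ligand CXCL12, and in Ewing sarcoma it has been linked with migration and metastasis. ACKR3, also called CXCR7, binds the same ligand and CXCL11. It signals mainly through arrestins and takes CXCL12 up from the surroundings, which lowers the amount left for CXCR4. ETS1 and FLI1 both belong to the ETS family of DNA-binding proteins, which recognise a GGAA core, and EWSR1::FLI1 also binds runs of GGAA repeats.

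RefSeq promoter sequences (GRCh38.p14, 250 bases before to 50 after the annotated start) were matched for 5 members: CXCR4, CXCL12, CXCL14, CXCL10 and CXCL11. ACKR3, CXCL16 and CCL2 had no entry. The 3 below are shown because their genes made up the most clearly measured changes of a receptor and its ligand and of the most abundant chemokine. They are written 5′ to 3′ on the gene's own strand, which is the minus strand for all 3, and capitals mark the ETS core GGAA or its complement TTCC. The regions are chr2:136118100-136118399 for CXCR4 (the start lying furthest upstream of its 3 RefSeq entries), chr10:44385048-44385347 for CXCL12 and chr5:135578942-135579241 for CXCL14.
CXCR4: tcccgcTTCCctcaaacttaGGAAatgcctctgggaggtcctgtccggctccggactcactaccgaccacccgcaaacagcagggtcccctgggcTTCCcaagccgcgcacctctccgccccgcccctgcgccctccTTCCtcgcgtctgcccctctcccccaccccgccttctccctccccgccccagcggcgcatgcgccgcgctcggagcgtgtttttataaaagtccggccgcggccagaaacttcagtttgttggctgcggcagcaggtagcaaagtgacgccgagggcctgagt
CXCL12: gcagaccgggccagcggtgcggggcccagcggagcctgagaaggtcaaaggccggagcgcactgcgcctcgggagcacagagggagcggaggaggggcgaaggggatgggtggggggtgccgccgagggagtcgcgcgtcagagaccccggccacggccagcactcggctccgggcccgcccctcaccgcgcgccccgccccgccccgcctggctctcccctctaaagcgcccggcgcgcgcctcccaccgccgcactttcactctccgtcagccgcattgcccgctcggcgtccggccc
CXCL14: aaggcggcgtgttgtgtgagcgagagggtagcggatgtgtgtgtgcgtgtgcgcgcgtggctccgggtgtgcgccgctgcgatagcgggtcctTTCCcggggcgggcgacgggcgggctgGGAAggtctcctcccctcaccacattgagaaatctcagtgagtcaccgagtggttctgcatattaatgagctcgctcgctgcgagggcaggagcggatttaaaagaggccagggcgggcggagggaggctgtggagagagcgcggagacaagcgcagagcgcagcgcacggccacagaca

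On both strands together, the ETS core GGAA matched 4 times in the CXCR4 promoter, 0 times in the CXCL12 promoter and 2 times in the CXCL14 promoter. At least 1 match is held by 95.5% of the 35116 promoters in the RefSeq table, whose median is 3 matches. At least 4 are held by 46.0% and at least 2 by 83.8%, so the counts in CXCR4 and CXCL14 are ordinary. The longer ETS1 consensus CCGGAAGT (held by 4.14% of all promoters) and the doubled core GGAAGGAA (3.67%), both of which contain GGAA, were not found in any of the 5 promoters. The 9 letters GCGCATGCG, bound by NRF1, occurred in CXCR4 as 2 overlapping matches on opposite strands that begin 59 and 58 bases before the start. A match is held by 1.92% of promoters and at least 2 matches by 1.27%. The GC box GGGCGG, present in 45.0% of promoters, matched 3 times in CXCR4, 3 times in CXCL12 and 4 times in CXCL14. Of all promoters, 15.8% hold at least 3 GC boxes and 9.06% at least 4. The CXCR4 counts are those of the entry shown. Its 2 other entries held 2 and 5 GGAA cores, no NRF1 match, and 0 and 2 GC boxes. Which start these cells use is not known. The CXCL10 and CXCL11 promoters each held 8 GGAA cores, a number reached by 3.78% of promoters. Each also held the kappaB letters GGAAATTCC, found in 0.461% of promoters, which begin 176 bases before the start in CXCL10 and 75 bases before it in CXCL11. This motif contains a GGAA and a TTCC, which are counted among the 8. CXCL10 held in addition an interferon response core, GAAANNGAA (8.11% of promoters), 221 bases before the start. These matches describe the letters in each window and say nothing of binding in these cells.

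The ETS1 transcript followed the labels. It had 87, 95 and 105 expected counts in the RFP libraries, 400, 488 and 420 in ETS1-Low, and 765, 817 and 879 in ETS1-High, and no groups overlapped. Counts from the vector and from the cell's own gene were not separated. The library totals ran from 39484704 to 46654734 expected counts, and 17235 genes passed the filter on low counts. The defining Ewing sarcoma markers NKX2-2 (46.4 to 53.0 FPKM over all libraries) and NR0B1 (212 to 254 FPKM) were present throughout, as were the other 6 listed. Their summed FPKM was higher in the ETS1 groups, from 1189 to 1216 in RFP, 1577 to 1593 in ETS1-Low and 1676 to 1698 in ETS1-High. CCND1 had 449 to 466, 646 to 652 and 642 to 660 FPKM, and CD99 169 to 175, 228 to 230 and 280 to 291. LIPI, at a lower level, had 14.3 to 17.8, 44.5 to 48.5 and 43.0 to 49.6 FPKM. PTPRC, which defines leukocytes, and CDH5, which defines endothelium, had at most 6 counts in any library. Other markers of these lists had more. CD14 had 49 to 73 counts in RFP, 8 to 9 in ETS1-Low and 7 to 19 in ETS1-High. CSF1R had 88 to 104, 2 to 7 and 15 to 21 in the same order. CD68 had 82 to 96, 94 to 102 and 20 to 54. PECAM1 had 78 to 88 counts in RFP, 143 to 164 in ETS1-Low and 206 to 244 in ETS1-High. CLDN5 also rose, with 2 to 4, 15 to 27 and 40 to 54 counts. TEK fell, with 32 to 41, 0 to 4 and 0 to 1 counts. VWF had 1 to 10 counts in RFP and 0 in both ETS1 groups. The part of these markers in the results on the members was not tested.

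Most genes tested differed between the groups, which sets the background for the members. A gene was called at a Benjamini-Hochberg adjusted p under 0.05 in the edgeR quasi-likelihood test, adjusted over all 17235 genes. In ETS1-High against RFP, 37% of genes were called higher and 37.2% lower, and 9.64% and 11.4% were called with at least a 2-fold rise or fall. In ETS1-Low against RFP, the shares were 37.9% higher and 36.2% lower, and 8.47% and 12.2% with at least 2-fold. In ETS1-High against ETS1-Low they were 29.9% and 29.3%, and 6.05% and 3.69% with at least 2-fold. In counts, 6372 genes were higher and 6413 lower in ETS1-High than in RFP, and 6537 and 6236 in ETS1-Low. On unfiltered deposited FPKM, limma on log2(FPKM + 1) tested 31313 genes. It called 4513 higher and 7333 lower for ETS1-High, and 4223 and 7340 for ETS1-Low. These splits differ from those above in the test and the genes as well as the scale. The RFP libraries are shared by both ETS1 comparisons.

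Of the 8 members, 7 passed the filter and CXCL10 did not. CXCL11 passed it only through its counts in the ETS1 groups. In ETS1-High against RFP, 5 were called higher (ACKR3, CXCL11, CXCL14, CXCL16, CCL2) and 2 lower (CXCL12, CXCR4), each by at least 2-fold. In ETS1-Low against RFP, 4 were called higher and 2 lower. Of these, CXCL11, CXCL14 and CXCL16 rose and CXCL12 and CXCR4 fell by at least 2-fold, whereas ACKR3 was higher by 1.1-fold. In ETS1-High against ETS1-Low, 4 were called higher, 3 of them by at least 2-fold (CXCR4, ACKR3, CCL2), and 2 were called lower by less than that. The background shares, at any size of change and at 2-fold, are given above. The members were chosen with earlier results of these data known. An excess of their counts or medians over all genes is therefore no test of the set. The median log2 fold change of the 7 members tested was 1.66, 0.14 and 0.2 in these comparisons, beside -0.009, 0.01 and 0 for all genes tested. These medians are the values of single members, CXCL11, ACKR3 and CXCL14 in that order. CXCL11 had few counts, and ACKR3 in ETS1-Low was not called on the FPKM scale, so nothing is read from them.

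**Figure D1:**
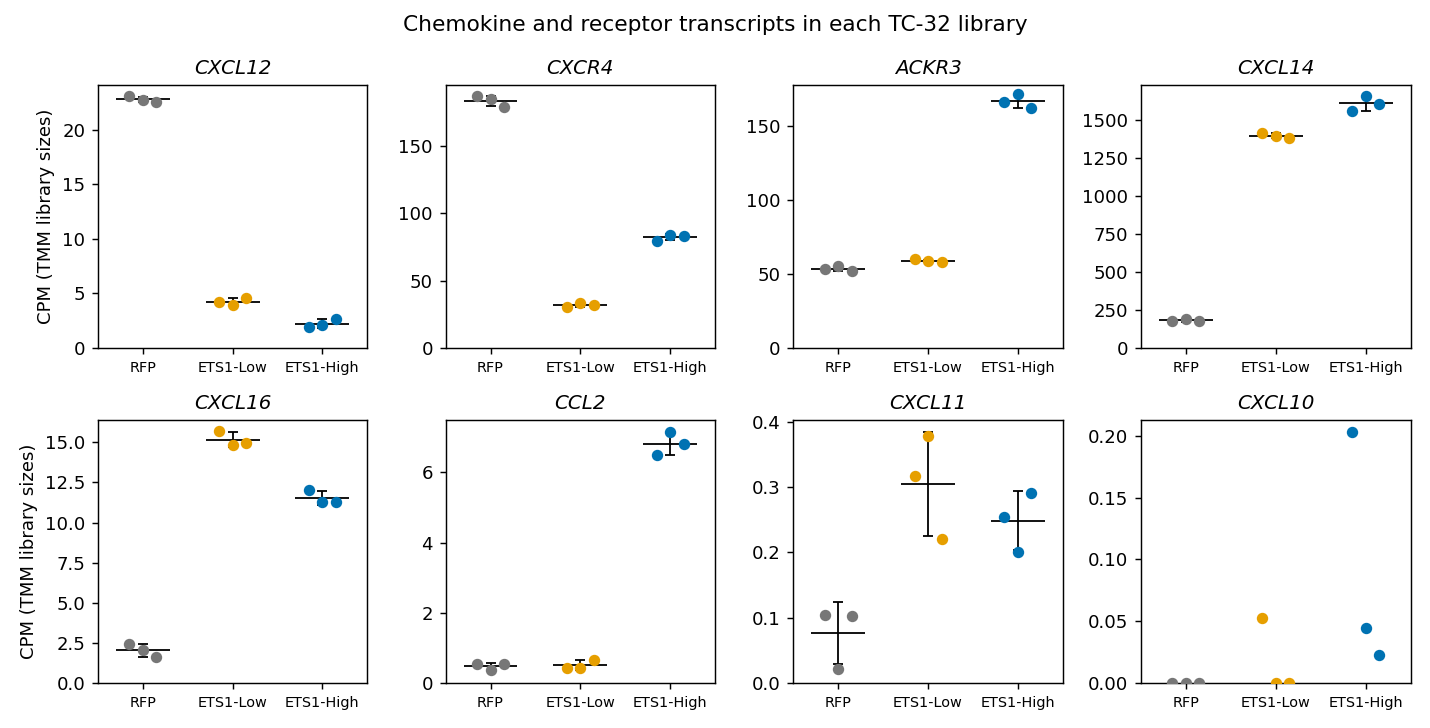
Level of each member as CPM (counts scaled to TMM library sizes, linear axis from 0) in every library of the RFP, ETS1-Low and ETS1-High groups. Points are libraries, lines are means and bars are SD (n = 3). CXCL10 has points only, since most of its libraries held 0 to 2 counts. CXCR4 was lowest in ETS1-Low, CXCL12 fell at each step, and ACKR3 and CCL2 stood apart in ETS1-High.

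CXCL12, the ligand shared by CXCR4 and ACKR3, fell with each higher ETS1 level. The gene (ENSG00000107562.16) lies at chr10:44370165-44386493 on the minus strand in GENCODE v44 and has 3 exons. It had 1108, 1064 and 1100 expected counts in RFP, 161, 177 and 186 in ETS1-Low, and 77, 95 and 120 in ETS1-High. Every RFP library lay far above the rest, and every ETS1-Low library lay above every ETS1-High library. Mean levels were 22.8 ± 0.249 CPM in RFP, 4.25 ± 0.303 in ETS1-Low and 2.25 ± 0.385 in ETS1-High (SD, n = 3 each). The level in ETS1-High was 10.1-fold below RFP (log2 fold change -3.33, SE 0.09, edgeR adjusted p = 5.58e-36). In ETS1-Low it was 5.37-fold below (log2 fold change -2.42, SE 0.08, edgeR adjusted p = 9.8e-32). The further step from ETS1-Low to ETS1-High was 1.87-fold (log2 fold change -0.91, 95% interval -1.12 to -0.69, edgeR adjusted p = 3.29e-10). Here and below, fewer cells with a transcript and less transcript per cell cannot be told apart in bulk RNA.

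CXCR4 did not follow the same order: it was highest in RFP, lowest in ETS1-Low and between them in ETS1-High. The gene (ENSG00000121966.6) lies at chr2:136114349-136119177 on the minus strand and has 2 exons. Its CPM values were 187, 184 and 179 in RFP, 30.1, 33.2 and 32.0 in ETS1-Low, and 79.4, 83.7 and 83.3 in ETS1-High. No library of a group reached the range of another group. Against the RFP mean of 183 ± 3.94 CPM, the ETS1-Low mean of 31.8 ± 1.57 was 5.76-fold lower (log2 fold change -2.53, SE 0.04, edgeR adjusted p = 2.44e-47). The ETS1-High mean of 82.1 ± 2.34 was 2.23-fold lower than RFP (log2 fold change -1.16, SE 0.03, edgeR adjusted p = 1.22e-34). ETS1-High held more CXCR4 transcript than ETS1-Low, by 2.58-fold (log2 fold change 1.37, 95% interval 1.29 to 1.44, edgeR adjusted p = 2.77e-34).

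ACKR3, the other CXCL12 receptor, rose in ETS1-High. The gene (ENSG00000144476.5) lies at chr2:236567787-236582354 on the plus strand and has 2 exons. Its CPM values were 53.6, 55.3 and 52.1 in RFP, 59.8, 58.8 and 58.4 in ETS1-Low, and 166, 171 and 162 in ETS1-High. The 3 groups did not overlap, but RFP and ETS1-Low lay next to each other. From 53.7 ± 1.63 CPM in RFP the level was 3.1-fold higher at 166 ± 4.71 in ETS1-High (log2 fold change 1.63, SE 0.03, edgeR adjusted p = 5.01e-41). ETS1-High also exceeded ETS1-Low by 2.82-fold (log2 fold change 1.5, SE 0.03, edgeR adjusted p = 2.16e-38). The difference of ETS1-Low from RFP, 0.14 on the log2 scale (95% interval 0.07 to 0.21, edgeR adjusted p = 0.000529), depended on the scale. On deposited FPKM, where the groups had 32.7 ± 1.05 and 32.4 ± 1.28, it was 0.015 (limma on log2(FPKM + 1), adjusted p = 0.767), and the median of all genes shifted by -0.13 between these scales. ACKR3 in ETS1-Low is therefore not called on the FPKM scale.

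Per length, the balance of both CXCL12 receptors was inverted in the ETS1 groups. This ratio was chosen after the values were seen and carries no test. CXCR4 FPKM divided by ACKR3 FPKM was 4.21, 3.96 and 3.77 in RFP, 0.563, 0.661 and 0.635 in ETS1-Low, and 0.584, 0.573 and 0.637 in ETS1-High. The group means were 3.98 ± 0.22, 0.62 ± 0.05 and 0.598 ± 0.034 (SD, n = 3). Both ETS1 groups overlapped in the ratio although they differed in each receptor: CXCR4 had 20.2 ± 1.03 FPKM in ETS1-Low and 53.6 ± 1.35 in ETS1-High, and ACKR3 32.7 ± 1.05 and 89.7 ± 4.28. The ratio of CXCR4 to its ligand behaved otherwise. CXCR4 FPKM per CXCL12 FPKM was 13.9, 13.5 and 12.5 in RFP, 10.7, 12.9 and 10.3 in ETS1-Low, and 66.7, 58.1 and 44.8 in ETS1-High.

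**Figure D2:**
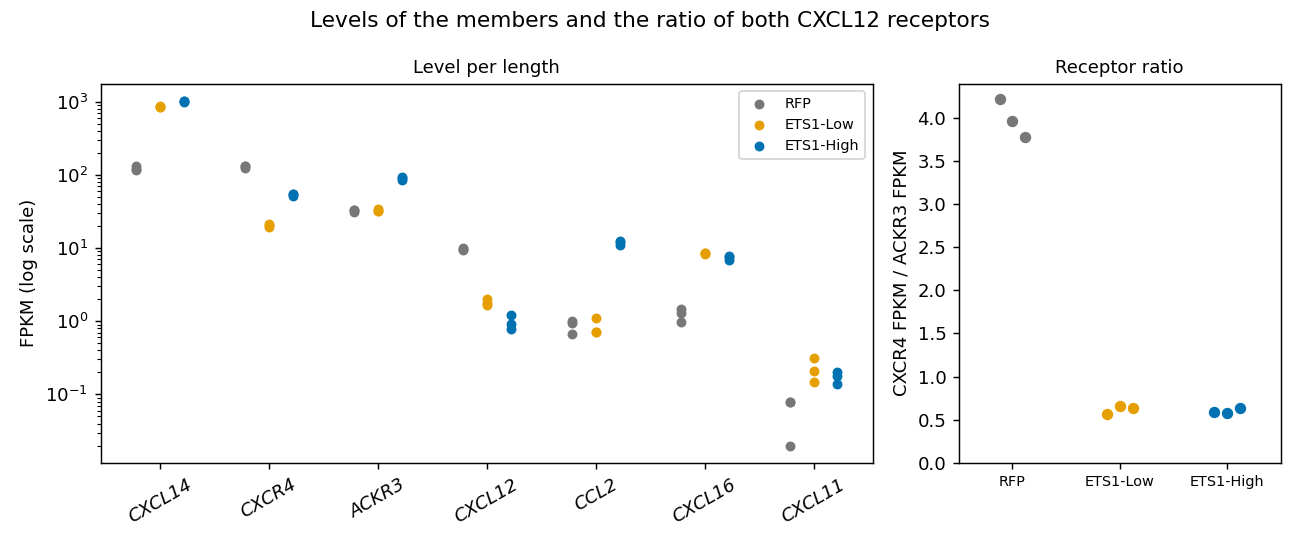
Left, the deposited FPKM of 7 members in each library on a log axis; CXCL10 is left out because several libraries are at 0. Right, CXCR4 FPKM divided by ACKR3 FPKM on a linear axis from 0. The ratio lies between 3.77 and 4.21 in RFP and between 0.563 and 0.661 in the 6 ETS1 libraries.

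CXCL14 was the most abundant member and rose strongly in both ETS1 groups. It encodes a chemokine of epithelia that attracts myeloid cells and whose receptor is not settled. The gene (ENSG00000145824.12) lies at chr5:135570679-135579279 on the minus strand and has 4 exons, which overlap exons of SLC25A48 and of ENSG00000250167 on the other strand. Its CPM values were 175, 193 and 181 in RFP, 1415, 1396 and 1381 in ETS1-Low, and 1563, 1658 and 1610 in ETS1-High. Both ETS1 groups lay well above RFP, and ETS1-High lay above ETS1-Low without overlap. ETS1-High exceeded RFP 8.79-fold (log2 fold change 3.14, SE 0.03, edgeR adjusted p = 1.95e-52) and ETS1-Low exceeded it 7.63-fold (2.93, SE 0.03, edgeR adjusted p = 3.99e-51). The step between the ETS1 groups was small, at 1.15-fold (log2 fold change 0.2, 95% interval 0.14 to 0.27, edgeR adjusted p = 1.37e-07). Among all 58381 genes, CXCL14 ranked 706 by mean FPKM in RFP (122 ± 7.17 FPKM), 127 in ETS1-Low (850 ± 6.39) and 108 in ETS1-High (1001 ± 23.4). It made up 90.7% to 91.8% of the summed FPKM of the 6 member ligands in RFP, and 98.0% to 98.7% in the ETS1 libraries. Whether the counting used strand is not given in the sources used here, so reads from the overlapping genes may be included in these counts.

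CXCL16, a membrane-bound chemokine that is shed by ADAM10 and ADAM17 and binds CXCR6, was raised in both ETS1 groups and was highest in ETS1-Low. The gene (ENSG00000161921.14) lies at chr17:4733533-4739928 on the minus strand and has 6 exons, which overlap exons of MED11 and ZMYND15 on the other strand. It had 116, 97 and 79 expected counts in RFP, 594, 667 and 613 in ETS1-Low, and 473, 508 and 504 in ETS1-High. RFP lay far below both, and in CPM no ETS1-High library reached the ETS1-Low range. The means were 2.03 ± 0.397, 15.2 ± 0.474 and 11.5 ± 0.414 CPM. ETS1-Low exceeded RFP 7.45-fold (log2 fold change 2.9, SE 0.09, edgeR adjusted p = 4.68e-32) and ETS1-High exceeded it 5.67-fold (2.5, SE 0.1, edgeR adjusted p = 7.25e-29). The difference between the ETS1 groups was -0.4 on the log2 scale (95% interval -0.54 to -0.25, edgeR adjusted p = 6.95e-06). On FPKM it was -0.169 (limma on log2(FPKM + 1), adjusted p = 0.0989) and was not called.

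CCL2, the chemokine that draws monocytes through CCR2, was raised in ETS1-High and near its RFP level in ETS1-Low. The gene (ENSG00000108691.9) lies at chr17:34255274-34257208 on the plus strand and has 3 exons. It had 26, 17 and 26 expected counts in RFP, 16, 19 and 27 in ETS1-Low, and 256, 322 and 304 in ETS1-High. RFP and ETS1-Low overlapped, and every ETS1-High library lay far above both. Mean CPM was 0.479 ± 0.1 in RFP, 0.502 ± 0.137 in ETS1-Low and 6.82 ± 0.332 in ETS1-High. ETS1-High exceeded RFP 14.2-fold (log2 fold change 3.82, SE 0.16, edgeR adjusted p = 1.47e-26) and ETS1-Low 13.6-fold (3.76, SE 0.17, edgeR adjusted p = 2.96e-25). For ETS1-Low against RFP the log2 fold change was 0.06 with a 95% interval of -0.44 to 0.57 (edgeR adjusted p = 0.831), so a change of about 1 log2 unit in either direction lies outside the interval.

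Markers of fibroblasts did not move as a group with CCL2 and ACKR3, but 2 of them were detected mainly in ETS1-High. DCN, the marker taken here to define fibroblasts, had 0 to 1 counts in RFP libraries, 1 to 2 in ETS1-Low and 32 to 43 in ETS1-High. LUM had 0, 0 and 13 to 19. PDGFRB fell, with 19.49 to 21.96 FPKM in RFP, 4.31 to 4.91 in ETS1-Low and 5.36 to 6.35 in ETS1-High. PDGFRA also fell, with 2.6 to 2.73, 0.58 to 0.78 and 0.67 to 0.85 FPKM in the same order. COL1A1 had 8.49 to 10.42, 5.66 to 7.31 and 9.91 to 11.6 FPKM, so RFP and ETS1-High overlapped. The summed FPKM of the 6 fibroblast markers ran from 30.7 to 35.0 in RFP, 10.7 to 13 in ETS1-Low and 17.4 to 18.8 in ETS1-High, and 1 of the 6 stayed at 3 counts or fewer in every library. The summed FPKM of the 5 endothelial markers ran from 0.69 to 1.53, 1.22 to 1.87 and 2.37 to 2.96, and that of the 9 leukocyte markers from 2.69 to 3.65, 1.51 to 2.02 and 0.73 to 1.18. Of the leukocyte markers, 3 stayed at 3 counts or fewer in every library. The part of these markers in the CCL2 and ACKR3 results was not tested.

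CXCL10 and CXCL11 are interferon-induced ligands of CXCR3, and CXCL11 also binds ACKR3. Both were near the limit of detection. The upper limit that a count of 0 allows, 3 counts, corresponds to 0.0615 to 0.0793 CPM in these libraries. CXCL11 (ENSG00000169248.12, chr4:76033682-76041415, minus strand, 4 exons) had 5, 1 and 5 counts in RFP, 12, 17 and 9 in ETS1-Low, and 10, 9 and 13 in ETS1-High. The ETS1 groups overlapped each other and lay above RFP. The log2 fold change against RFP was 1.96 in ETS1-Low (SE 0.51, edgeR adjusted p = 0.000589) and 1.66 in ETS1-High (SE 0.53, 95% interval 0.6 to 2.72, edgeR adjusted p = 0.00424). CXCL11 passed the low-count filter only through the groups in which it is higher, and it had at most 17 counts in any library. These calls therefore carry little weight. Among all genes without a filter, edgeR gave adjusted p = 0.000818 and 0.00701. On unfiltered FPKM the call in ETS1-High was lost (limma log2 difference 0.147, adjusted p = 0.0848). Between the ETS1 groups the log2 difference was -0.3 (95% interval -1.14 to 0.54, edgeR adjusted p = 0.561). CXCL10 (ENSG00000169245.5, chr4:76021118-76023497, minus strand, 4 exons) had 0 counts in all RFP libraries, 2, 0 and 0 in ETS1-Low, and 8, 2 and 1 in ETS1-High. A single ETS1-High library held most of its counts, and it did not enter the main test. With no filter on low counts, edgeR called it in ETS1-High against RFP (adjusted p = 0.00453) and limma on unfiltered FPKM did not (adjusted p = 0.147), and no fold is given.

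**Figure D3:**
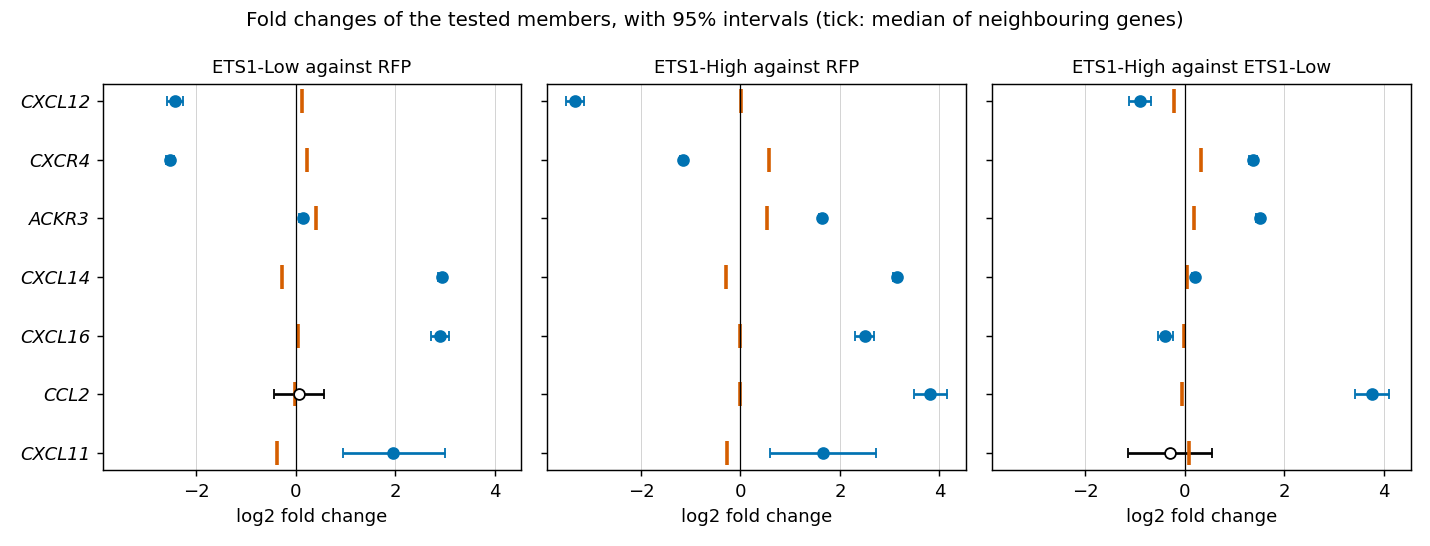
Log2 fold change of each tested member with its 95% interval in ETS1-High against RFP, ETS1-Low against RFP and ETS1-High against ETS1-Low (edgeR, 9 libraries). CXCL12 and CXCR4 lie below 0 in both ETS1 groups against RFP, and CCL2 in ETS1-Low (0.06) has an interval across 0.

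The textbook receptors of 4 of these chemokines were not detected. CXCR3 (receptor of CXCL10 and CXCL11), CXCR6 (of CXCL16) and CCR2 (of CCL2) had 0 counts in all 9 libraries, which allows up to 3 counts in each. Of the 21 other chemokine receptors listed, 17 had at most 3 counts in every library, and 1 passed the filter. That 1, CCR10, was not called in any comparison. Of the 34 other chemokine ligands, 27 had at most 3 counts in every library and 3 passed the filter: CX3CL1, CCL26 and CXCL8.

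CCL26, an eosinophil-attracting ligand of CCR3, resembled CXCL16 in its order. It rose from 0.423 ± 0.134 CPM in RFP to 7.99 ± 0.275 in ETS1-Low and 3.4 ± 0.389 in ETS1-High. The log2 fold changes were 4.23 in ETS1-Low (edgeR adjusted p = 7.38e-30), 3 in ETS1-High (edgeR adjusted p = 1.29e-21) and -1.23 between them (edgeR adjusted p = 3.75e-14). CX3CL1, the membrane-bound ligand of CX3CR1, fell stepwise as CXCL12 did. It had 125 to 151 counts in RFP and 12 to 27 in ETS1-Low (log2 fold change -2.49, edgeR adjusted p = 3.74e-14), and 1 count in each ETS1-High library. CXCL8, named here because it was the remaining ligand tested, had 19 to 26, 13 to 29 and 4 to 7 counts.

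Signalling genes downstream of CXCR4 (36 of 38 listed passed the filter) were called in both directions. In ETS1-High against RFP, 16 were higher, 13 lower and 7 not called, and their median change was 0.04 on the log2 scale. In ETS1-Low the counts were 20, 14 and 2 (median 0.11), and between the ETS1 groups 13, 11 and 12 (median -0.01). At any size of change these shares are near or above the background, and the medians lie close to those of all genes. By at least 2-fold, 2 of 36 changed in ETS1-High against RFP, 3 in ETS1-Low against RFP and 1 from ETS1-Low to ETS1-High, all of them lower. Over all genes, 11.4%, 12.2% and 3.69% were lower and 9.64%, 8.47% and 6.05% higher by that much. With counts this small, nothing is read from them. The largest changes in ETS1-High against RFP were falls. GNG2, a G protein gamma subunit, went from 34.8 ± 2.04 CPM in RFP to 5.73 ± 0.175 in ETS1-Low and 5.94 ± 0.221 in ETS1-High (log2 fold changes -2.6 and -2.55, edgeR adjusted p = 7.83e-37 and 9.27e-37). PLCB1, a phospholipase C activated by G proteins, went from 12.2 ± 0.264 to 2.32 ± 0.287 and 2.78 ± 0.826 CPM (-2.39 and -2.14, edgeR adjusted p = 7.76e-14 and 3.1e-13). PTK2B, a calcium-responsive tyrosine kinase, had log2 fold changes of -0.89 in ETS1-Low and -0.93 in ETS1-High (edgeR adjusted p = 1.37e-11 and 3.21e-12). These 3 fell alike in both ETS1 groups, and none was called between them (edgeR adjusted p = 0.609, 0.193 and 0.763).

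Other genes of the pathway separated the ETS1 groups. ARRB1, the beta-arrestin that binds activated CXCR4 and ACKR3, was 15.8 ± 0.293 CPM in RFP, higher in ETS1-Low at 24.7 ± 1.08 and lower in ETS1-High at 8.22 ± 0.922. Its log2 difference between the ETS1 groups was -1.59 (edgeR adjusted p = 7.35e-27), opposite in sign to that of both receptors. VAV2, a guanine nucleotide exchange factor, had the order of CXCR4, with means of 64.9 ± 2.26 (RFP), 31.6 ± 1.1 (ETS1-Low) and 51.9 ± 1.76 CPM (ETS1-High). Its log2 difference between the ETS1 groups was 0.71 (edgeR adjusted p = 2.76e-21). JAK2, a cytokine receptor kinase, had 31.9 ± 1.33, 23.5 ± 1 and 38.7 ± 1.51 CPM, also lowest in ETS1-Low, with a log2 difference of 0.71 (edgeR adjusted p = 2.78e-19).

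Among 13 tested genes that cut chemokines or serve as other partners of CXCR4, 5 were higher, 7 lower and 1 not called in ETS1-High against RFP (median log2 fold change -0.11). In ETS1-Low the counts were 5, 4 and 4 (median -0.02), and between the ETS1 groups 4, 5 and 4 (median -0.05). Over all genes the shares called higher and lower were 37% and 37.2%, 37.9% and 36.2%, and 29.9% and 29.3% in these comparisons, and with so few genes in the list nothing is read from its counts. CD44, a hyaluronan receptor that forms complexes with CD74 and CXCR4, was likewise highest in ETS1-High, with 2.07 ± 0.233 CPM in RFP, 2.5 ± 0.104 in ETS1-Low and 17 ± 1.81 in ETS1-High. Its log2 fold change in ETS1-High against RFP was 3.04 (edgeR adjusted p = 2.15e-32). SDC1, a heparan sulfate proteoglycan that holds chemokines at the cell surface, had a log2 fold change of -2.22 in ETS1-High (edgeR adjusted p = 2.4e-22). In ETS1-Low its difference was -0.02 (edgeR adjusted p = 0.824).

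The CXCL12-cleaving gelatinases did not move together. MMP2 was 149.5 ± 3.6 CPM in RFP, 82.7 ± 1.44 in ETS1-Low and 230 ± 9.43 in ETS1-High, with a log2 difference of 1.48 between the ETS1 groups (edgeR adjusted p = 2.68e-38). MMP9 fell in both ETS1 groups, with log2 fold changes of -1.59 in ETS1-Low and -1.42 in ETS1-High (edgeR adjusted p = 1.5e-16 and 3.74e-15). MMP14, a membrane-bound metalloproteinase that activates MMP2, differed by 0.48 on the log2 scale between ETS1-High and ETS1-Low (edgeR adjusted p = 1.15e-18). ADAM17, a sheddase of CXCL16, had a log2 difference of -0.35 in the same comparison (edgeR adjusted p = 2.52e-11).

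Regulators of chemokine transcription, which here means interferon regulatory factors, NF-kappaB subunits, RNA sensors and hypoxia factors, were called in both directions. Of 25 tested, 15 were higher and 5 lower in ETS1-High against RFP, with a median log2 fold change of 0.5 beside -0.009 for all genes. In ETS1-Low 14 were higher and 6 lower (median 0.13), and between the ETS1 groups 14 and 5 (median 0.16). Over all genes 37%, 37.9% and 29.9% were called higher in these comparisons. With a rise of at least 2-fold there were 4, 3 and 1 of the 25, beside 9.64%, 8.47% and 6.05% of all genes. IFIH1, a sensor of double-stranded RNA, rose from 0.305 ± 0.0907 CPM in RFP to 16.4 ± 0.38 in ETS1-Low and 18.9 ± 0.192 in ETS1-High (log2 fold changes 5.73 and 5.94, edgeR adjusted p = 3.54e-40 and 2.56e-41). TLR3, the endosomal sensor of double-stranded RNA, rose from 0.883 ± 0.0467 to 7.13 ± 0.307 and 12 ± 0.56 CPM (3.01 and 3.76, edgeR adjusted p = 1.3e-28 and 3.89e-34).

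IRF1, an activator of interferon-induced genes, had the larger part of its rise in ETS1-High, with 5.06 ± 0.159 CPM in RFP, 7.17 ± 0.793 in ETS1-Low and 24.3 ± 0.636 in ETS1-High. Its log2 difference between the ETS1 groups was 1.76 (edgeR adjusted p = 1.87e-27). RELB, an NF-kappaB subunit, rose alike in both, by 1.17 and 1.25 on the log2 scale (edgeR adjusted p = 1.15e-11 and 1.05e-12). NFKB2, which encodes its usual partner, was lower in ETS1-High than in ETS1-Low (-0.92, edgeR adjusted p = 2.37e-21). EPAS1, a hypoxia-responsive factor that can activate CXCR4 in other cells, had a log2 difference of 0.95 in that comparison (edgeR adjusted p = 1.11e-23). Against RFP, EPAS1 was higher in ETS1-High (log2 fold change 0.74, edgeR adjusted p = 9.6e-21), where CXCR4 was lower. In ETS1-Low it was slightly lower than in RFP (-0.21, edgeR adjusted p = 2.13e-05). The part of EPAS1 in the CXCR4 values was not tested.

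**Figure D4:**
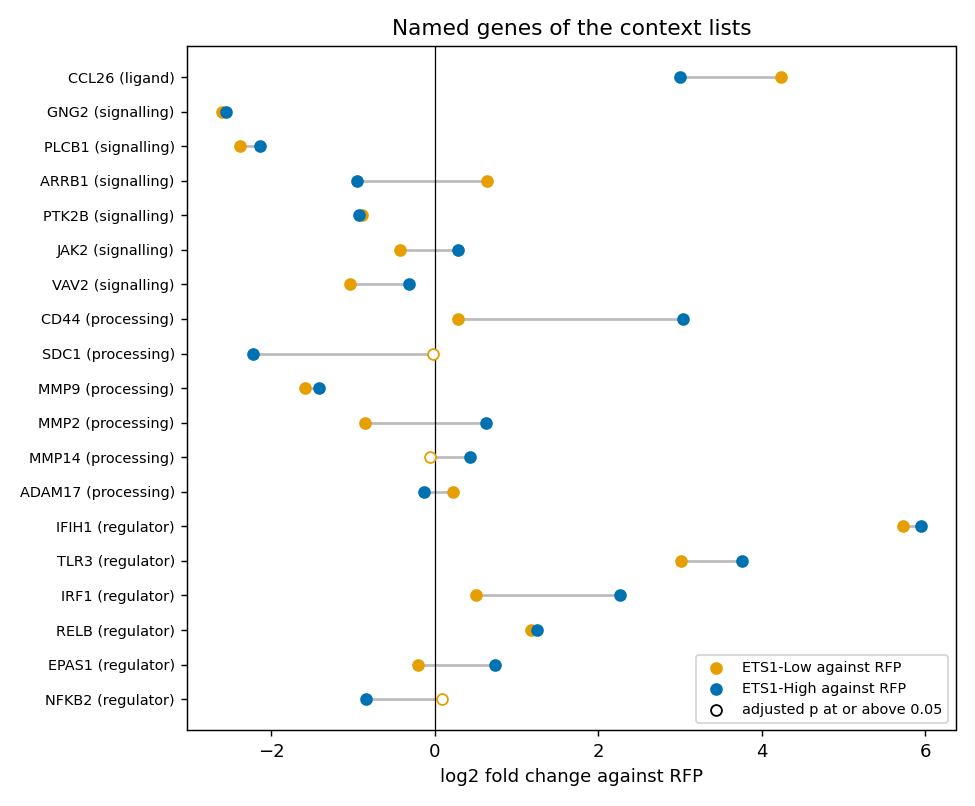
Log2 fold change against RFP (edgeR) of the named ligand, signalling, processing and regulator genes in ETS1-Low and ETS1-High. Grey lines join both values of a gene, and hollow points have an adjusted p at or above 0.05. IFIH1 lies near 6 in both groups (5.73 and 5.94), whereas CD44 and SDC1 lie near 0 in ETS1-Low and far from it in ETS1-High. CX3CL1 is left out because it had 1 count in each ETS1-High library.

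Changes of whole chromosome stretches were also examined around each member, since the ETS1 cells are clones. The median log2 fold change was taken over tested genes within 10 Mb on each side. Around CXCR4 it was 0.58 for ETS1-High against RFP and 0.22 for ETS1-Low against RFP (42 genes), opposite in sign to the fall of CXCR4, which relative to its neighbours was -1.74 and -2.75. Around ACKR3 it was 0.54 and 0.4 (74 genes), which leaves 1.09 of the rise of ACKR3 in ETS1-High and turns its value in ETS1-Low to -0.27. Around CXCL14 it was -0.28 and -0.27 (109 genes), against a member rise of 3.14 and 2.93. Around CXCL12, CXCL16 and CCL2 it lay between -0.01 and 0.13 in both ETS1 groups against RFP. In ETS1-High against ETS1-Low it was -0.23 around CXCL12 (48 genes), which leaves -0.68 of the CXCL12 step of -0.91. Around CXCR4 it was 0.33, which leaves 1.04 of 1.37, and around ACKR3 0.18, which leaves 1.32 of 1.5. Around CXCL14, CXCL16 and CCL2 it lay between -0.06 and 0.05 in that comparison. Copy number was not measured, and its part in these values was not tested.

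The genes most like each member were named by the Pearson correlation of log2 CPM over the 9 libraries, among tested genes averaging 100 counts or more. The libraries form 3 groups, so these values mainly compare the order and spacing of 3 levels, and many genes reached r above 0.99. For CXCL12 the closest were C8orf4 (r = 0.9975), GLIS3 (0.9975) and IL33 (0.9973), of 92 genes above 0.99. For CXCR4 they were ODF2 (0.9984), THRB (0.9978) and GOLPH3L (0.9977), of 85. THRB had 9.27 CPM in RFP, 0.113 in ETS1-Low and 1.46 in ETS1-High. For ACKR3 the closest were ISLR (0.9992), FHL1 (0.9991) and MGP (0.9989), of 53, and ISLR had 5.12, 6.27 and 57.0 CPM in these groups.

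For CXCL14, 402 genes lay above 0.99, and DIRC3 (0.9998), TK1 (0.9996) and GAB1 (0.9994) were closest. For CXCL16 they were GRIK5 (0.9984), NLRC5 (0.9980) and PMAIP1 (0.9972), of 128. NLRC5 had 2.07 CPM in RFP, 19.7 in ETS1-Low and 15.5 in ETS1-High. CCL2 had 11 genes above 0.99, among them TLE4 (0.9951) and OGN (0.9943). OGN, a small leucine-rich proteoglycan like LUM and DCN, had 0.104, 0.0657 and 8.28 CPM in the same order of groups. CXCL11, with its few counts, had 1 gene above 0.99 (UTP18, 0.9917), followed by IFRD2 (0.9803) and CCNE1 (0.9748).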

How the data were processed

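RNA-seq was run on 9 TC-32 libraries, 3 each labelled RFP, ETS1-Low and ETS1-High, from total RNA with a stranded mRNA kit, per the labels' protocols. In column names, L was taken as Low and H as High. The authors deposited a table of expected counts and a table of FPKM values per gene, both named for RSEM, per the file headers. The submitters' processing notes name cutadapt 4.4, STAR 2.7.3, featureCounts, Subread 2.0.3 and limma 3.38.3 with the build GRCh38 (hg38); how these steps led to the RSEM tables, and the annotation, are not given in the sources used here. Expected counts are estimates that divide shared reads, and 9% to 10.3% of values per library were not whole.

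Rounded expected counts entered the edgeR quasi-likelihood test (edgeR 4.0.16, R 4.3.3, TMM, robust fit, group as the only factor, all 9 libraries), after filterByExpr by group left 17235 of 58381 genes. Benjamini-Hochberg adjustment covered every tested gene, with a threshold of 0.05. CPM values use TMM library sizes and are mean ± SD of 3 libraries, SE is the absolute log2 fold change divided by the square root of F, and intervals are at 95%. Deposited FPKM values served to compare levels between genes. Library totals were 39484704 to 46654734 expected counts. A floor of 3 counts covers counting error only, since PCR copies carry no molecular identifiers. Replicate libraries differed beyond sampling noise (chi-square per gene 2.66 to 5.19, where noise alone gives about 1) and were each counted. P-values measure the spread between libraries as labelled, which may be technical, and no batch or date is given. No table column was left without a library.

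The members and all gene lists were chosen with earlier results of these data known. Besides the members, ETS1 and 3 receptors, genes were named by rule. From each of 5 context lists the rule took up to 4 genes with the largest called change in ETS1-High against RFP and up to 2 more between the ETS1 groups, all averaging 50 counts or more. For each tested member it took the 3 most correlated genes averaging 100 counts or more. Of the genes so chosen, 1 is not reported here. Positions are from GENCODE v44 (GRCh38), where 17094 tested genes (99.2%) were found by identifier, and neighbours were genes within 10 Mb with a mean log2 CPM above 1. Motifs were searched on both strands of RefSeq promoters of 300 bases. The script was tested on simulated data. Alternatives were edgeR with size factors from DESeq2 or with upper-quartile scaling, DESeq2's own Wald test (version 1.42.0), other filters (none, or 10 counts or more in all libraries), a block for the replicate number, fits of the compared groups alone, each library left out in turn, and limma 3.58.1 on log2(FPKM + 1) or log2(FPKM + 0.1) with a mean FPKM of at least 1, and on log2(FPKM + 1) without it.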

Additional observations from a re-analysis of the deposited data

Results flagged for a closer look

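The RFP libraries are shared by both ETS1 comparisons, and for 6 members their effects differed by a direct test of ETS1-High against ETS1-Low. CXCR4 (log2 difference 1.37), ACKR3 (1.5), CCL2 (3.76) and CXCL14 (0.2) were higher in ETS1-High, and CXCL12 (-0.91) and CXCL16 (-0.4) were lower, each called by the edgeR test (adjusted p under 0.05). In every one of the 6, the 3 libraries of one group did not overlap those of the other in CPM. The direction of the step relative to the change from RFP was not shared. CXCL12, CXCL14, ACKR3 and CCL2 moved further from RFP in ETS1-High, whereas CXCR4 and CXCL16 lay closer to RFP in ETS1-High than in ETS1-Low. No group was examined for single outlying libraries, since each had 3.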

How the results depend on the processing

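The log2 fold changes of the members kept their side of the threshold, and where called their direction, in 381 recomputed values, lost their call in 7, and reversed in 0 where called. The 7 were all on deposited FPKM and the cause was not tested. ACKR3 in ETS1-Low against RFP was 0.015 with a pseudocount of 1 (limma adjusted p = 0.767), 0.016 with 0.1 (0.764) and 0.015 without a filter (0.844). CXCL16 in ETS1-High against ETS1-Low was -0.169 (limma adjusted p = 0.0989), -0.188 (0.206) and -0.169 (0.211) in the same order. CXCL11 in ETS1-High against RFP was 0.147 without a filter (limma adjusted p = 0.0848). Leaving out each library in turn changed no call of a member, and CCL2 in ETS1-Low against RFP, which was not called, then ran from -0.179 to 0.187. CXCL11 gave no value with at least 10 counts in every library, in either fit of only the ETS1 group and RFP, or with a mean FPKM of at least 1, and CXCL10 gave one only without a filter.

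The number of genes called with at least a 2-fold change moved by over 1.5 times in 4 settings. For ETS1-High against RFP it was 3626, and 2035 with at least 10 counts in every library, 1241 on log2(FPKM + 1), 1714 on log2(FPKM + 0.1) and 1410 on log2(FPKM + 1) without a filter. In the same order it was 3555, 1985, 1201, 1696 and 1361 for ETS1-Low against RFP, and 1679, 831, 415, 690 and 459 for ETS1-High against ETS1-Low. A stricter filter tests fewer genes, and a pseudocount shrinks the fold of low ones.

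With the replicate number as a replicate block, 12701, 12729 and 10122 genes were called in these comparisons, beside 12785, 12773 and 10196 without it, and no member call changed. Libraries with the same number correlated between -0.093 and 0.112 in their deviations from the group means. Of the 9, 4 correlated best with their own number. These values show no sign of pairing by number, but with 3 libraries a group they cannot exclude it. Depth limits CXCL10 and CXCL11, whose counts lie at or near the floor of 3.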

Other observations

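ACKR1, an atypical receptor that binds many inflammatory chemokines, did not pass the low-count filter and was singled out after its values were seen. It had 19, 9 and 5 counts in the RFP libraries and 0 in each of the 6 ETS1 libraries, which allows up to 3 counts in each.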
